A study of Mus musculus with 3 samples.

Results

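The SoxF transcription factors *Sox7*, *Sox17* and *Sox18* were examined in adult lung endothelial cells (ECs). They were chosen by name, as the rows of these 3 genes among the 24346 gene symbols of the deposited table, in the 3 libraries S38, S44 and S52. All 3 libraries are of 1 condition: freshly isolated lung ECs of wild type C57BL/6J mice, which the study's methods describe as males aged 6 to 8 weeks. The mice received an antibody to VE-cadherin by injection before the lungs were taken, and dissociated cells were sorted for CD31 and against CD45 and podoplanin. Nothing states whether the libraries came from separate mice, so the spread between them may be technical. Where 3 values of 1 gene or sum are listed, their order is S38, S44, S52, and ± gives the SD over these libraries. With 1 condition, no difference between conditions can be tested.

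SoxF proteins are a small branch of the Sox family, which binds DNA through a high-mobility-group (HMG) box. They act in early endoderm and in vascular development, where they overlap in function. *Sox17* is best known for its role in arterial identity and *Sox18* for the onset of lymphatic development, and *Sox7* acts beside them in vessel formation. The study uses *Sox17* among its markers of arterial vessels in the kidney, with lung ECs as one of the organs for comparison.

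The 3 genes are related in sequence, so it was checked whether reads of 51 bases can be told apart. Over whole transcripts (GENCODE M21) the longest exact run shared by a pair was 29 bases, for *Sox17* and *Sox18*, with 22 bases for *Sox7* and *Sox17* and 20 bases for *Sox7* and *Sox18*. None of the read-length windows of the 3 genes occurs in a transcript of another Sox gene, out of 3249 windows in *Sox7*, 5042 in *Sox17* and 1570 in *Sox18*. A single window of *Sox7* occurs in *Mpo*.

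*Sox7* (ENSMUSG00000063060.6) spans chr14:63943673-63950732 (GRCm38, plus strand) and has 1 annotated transcript, of 3299 bp and 2 exons. *Sox18* (ENSMUSG00000046470.5) lies on the minus strand of chromosome 2 from 181669836 to 181671640 and also has 1 transcript, of 1620 bp and 2 exons. *Sox17* (ENSMUSG00000025902.13), on the minus strand of chromosome 1 from 4490931 to 4497354, has 8 transcripts of 406 to 3242 bp. An antisense transcript, *Gm37587*, overlaps 804 of the 4772 exonic bases of *Sox17*, and 754 of the *Sox17* windows occur in it on the opposite strand. The libraries carry no strand information and *Gm37587* has no row in the table, so its reads and those of *Sox17* cannot be told apart there. The *Sox17* value is also printed with up to 10 digits, against 6 for *Sox7* and *Sox18*. Among genes at 1 FPKM or above, 59.6% of 5419 genes with several curated RefSeq transcripts had more than 6 digits, against 0.43% of 5809 genes with 1. How the values of the *Sox17* transcripts were combined is not stated, so its level relative to *Sox7* and *Sox18* depends on that step.

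The fraction carried strong endothelial signal, and library S52 stood apart in genes of other cells. The 10 endothelial marker genes were all above 10 FPKM, beside 25.7% of all genes, with a geometric mean of 457, 480 and 475 FPKM. This level mean covers opposite shifts, since 3 of the genes were highest and 3 lowest in S52. *Emcn* was at 156, 181 and 267 FPKM, for example, and *Kdr* at 380, 360 and 237 FPKM. FPKM is a read density, corrected for gene length and for the depth of the library. All 4 platelet genes were lowest in S52, and their sum was 1692, 1345 and 37.96 FPKM. All 5 alveolar type 2 genes (sum 3839, 3218 and 766 FPKM) and all 5 airway genes (sum 2780, 2316 and 401 FPKM) were lowest there too. On the means *Sftpc* (2284 FPKM) and *Scgb1a1* (1753 FPKM) of these lists were above every listed endothelial gene, the highest being *Cldn5* at 1416 FPKM. Both were below *Cldn5* in S52. The 3 leukocyte genes at 1 FPKM or above were also lowest in S52. All 5 leukocyte genes summed to 1061, 790 and 169 FPKM, mostly from *Lyz2* at 1047, 780 and 166 FPKM. Mural genes were not lowest in S52, with sums of 115, 60.2 and 111 FPKM, and fibroblast genes summed to 73.1, 56.0 and 41.9 FPKM. The part of these cells in the SoxF values was not tested, and in bulk libraries fewer cells of a type and less RNA per cell cannot be told apart. Depth, estimated from the steps between low values, was 37.8, 39 and 34.3 M fragments (M, 1e6).

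All 3 SoxF genes were well expressed in every library, and together they made up most of the Sox transcripts. The *Sox7* values were 51.4, 53.9 and 67.0 FPKM (mean 57.5 ± 8.39, n = 3). Those of *Sox18* were 54.7, 54.7 and 46.8 FPKM (mean 52.1 ± 4.59, n = 3). For *Sox17* the values were lower, 36.3, 31.99 and 39.3 FPKM (mean 35.9 ± 3.70, n = 3). *Sox7* was highest in S52, *Sox18* was lowest in S52 and nearly level in the other libraries, and *Sox17* was the lowest of the SoxF genes in each library. Their means rank 1511, 1678 and 2410 for *Sox7*, *Sox18* and *Sox17* among the 24346 genes of the table, above 93.8%, 93.1% and 90.1% of them. All 3 were above 10 FPKM in every library, whereas 25.7% of all genes had a mean at or above 10 FPKM and 48.3% a mean at or above 1 FPKM.

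**Figure D1:**
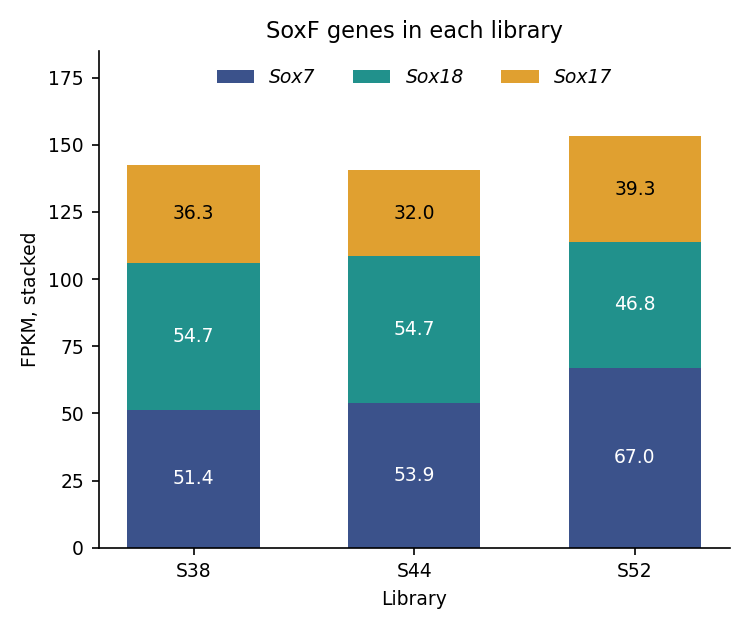
FPKM of *Sox7*, *Sox18* and *Sox17* stacked for each of the 3 libraries, with each value printed in its bar. The sum stays between 140.6 and 153.1 FPKM, while the *Sox7* part is largest and the *Sox18* part smallest in S52.

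The sum of the SoxF genes came to 142.5, 140.6 and 153.1 FPKM (mean 145.4 ± 6.76, n = 3). Its spread depended on scaling, since it was 123.5, 87.7 and 107.9 after each library was rescaled to the same sum. A median-ratio scaling divided each library by its median ratio to the geometric mean of each expressed gene. With it the sum was 138.1, 138.9 and 158.2. The shares of the genes in it do not depend on the scaling. *Sox18* held 38.4% of it in S38, 38.9% in S44 and 30.5% in S52. *Sox7* held 36.1%, 38.3% and 43.8%, and *Sox17* held 25.5%, 22.8% and 25.7%. *Sox7* and *Sox18* therefore exchanged places between S52 and the other libraries, while the *Sox17* share moved little.

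The order of the SoxF genes was compared within libraries, since FPKM is scaled to gene length. *Sox7* was above *Sox17* in 3 of 3 libraries, by 0.66 ± 0.15 on the log2(FPKM + 1) scale (SD, n = 3). *Sox18* was above *Sox17* in 3 of 3 libraries, by 0.53 ± 0.26 (SD, n = 3), with the smallest margin, 0.24, in S52. The lowest *Sox7* and *Sox18* values, 51.4 and 46.8 FPKM, lay above the highest *Sox17* value of 39.3 FPKM, so the ranges did not overlap. Each of these differences gave p = 0.25 in a two-sided exact permutation test over the 3 libraries, the smallest p that 3 pairs allow, so the test could not pass 0.05. *Sox7* and *Sox18* were not separated. *Sox7* was higher in 1 of 3 libraries, with a mean difference of 0.13 ± 0.33 (SD, n = 3; exact permutation test, p = 1), and without S52 the difference was -0.054.

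Counting error was small beside the differences of *Sox7* and *Sox18* from *Sox17*, at each *Sox17* length given below. It was not small beside the difference between *Sox7* and *Sox18* in S44. With the estimated depth and the transcript lengths given above, *Sox7* rested on about 6117, 6589 and 7202 fragments, and *Sox18* on 3038, 3111 and 2328. The 95% Poisson intervals of *Sox18*, which cover counting error only, were 52.8 to 56.7 FPKM in S38 and 44.9 to 48.7 FPKM in S52 and did not overlap. Those of *Sox7* were 50.1 to 52.7 FPKM in S38, 52.6 to 55.2 FPKM in S44 and 65.5 to 68.6 FPKM in S52. The intervals of *Sox7* and *Sox18* overlapped in S44, where *Sox18* spanned 52.8 to 56.7 FPKM. They were apart with *Sox7* higher in S52. In S38 they were only just apart with *Sox18* higher, at 52.7 FPKM (upper end of *Sox7*) against 52.8 FPKM (lower end of *Sox18*). For *Sox17* the transcript behind the reads is unknown. A length of 3242 bp gives 3840 to 4244 fragments per library, and 1512 bp gives 1685 to 1870.

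**Figure D2:**
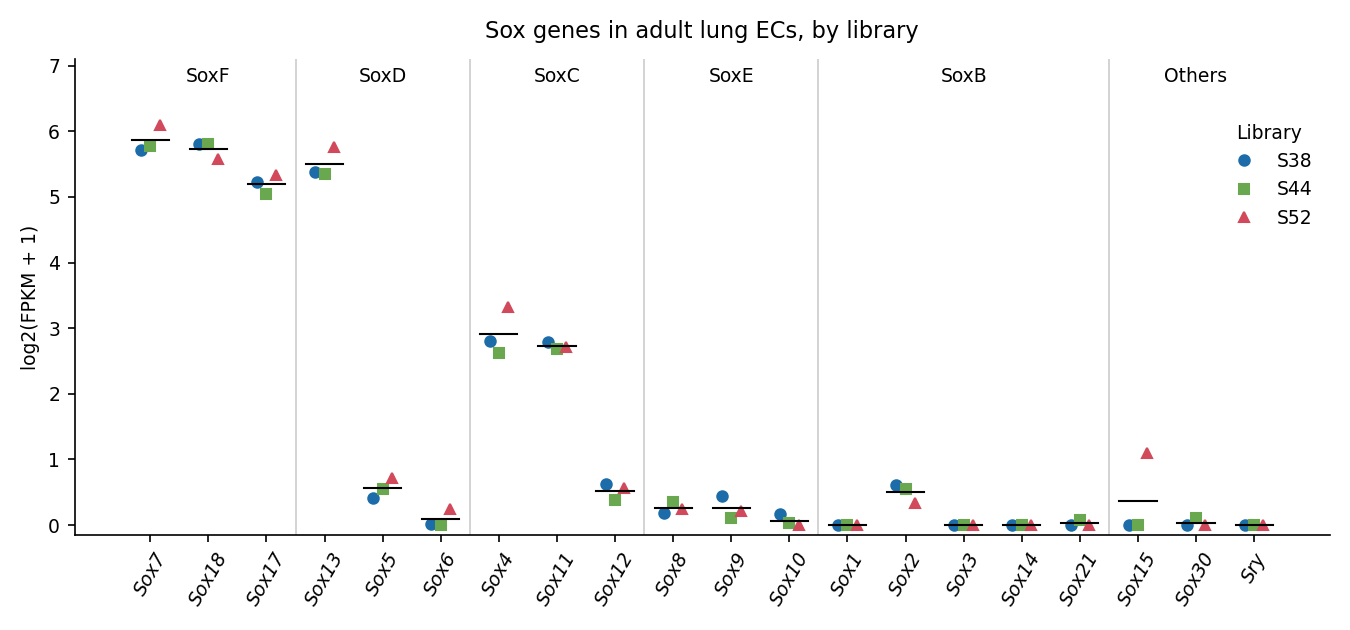
log2(FPKM + 1) of the 20 Sox genes in each library, grouped by Sox subfamily, with a bar at the mean of the 3 libraries. The SoxF genes and *Sox13* lie together near the top, *Sox4* and *Sox11* lie between, and the remaining genes lie lower, many of them near 0. The highest point among these is *Sox15* in S52, at 1.14 FPKM.

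The other 17 Sox genes were mostly low, with *Sox13* as the exception. *Sox13*, a SoxD factor, had values of 40.6, 39.7 and 53.5 FPKM (mean 44.6 ± 7.72, n = 3). It was below *Sox7* in every library and above *Sox17* in every library, by 0.30 ± 0.14 on the log2(FPKM + 1) scale (SD, n = 3; exact permutation test, p = 0.25, the smallest possible). *Sox13* and *Sox18* were not separated, since *Sox13* was higher in 1 of 3 libraries. The SoxC factors *Sox4* and *Sox11*, known from progenitor and developing tissues, followed at 6.68 ± 2.01 and 5.62 ± 0.257 FPKM (SD, n = 3). *Sox17* was 5.37-fold above *Sox4* on the means.

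The 14 remaining Sox genes had means below 1 FPKM, where 48.3% of all genes averaged 1 FPKM or more. *Sox2*, a factor of airway epithelium, had values of 0.526, 0.468 and 0.268 FPKM, and *Sox9*, a factor of the distal lung epithelium and of cartilage, at 0.363, 0.0769 and 0.162 FPKM. *Sox15* was listed at 0 in S38 and S44 and at 1.14 FPKM in S52. *Sry*, *Sox1*, *Sox3* and *Sox14* were listed at 0 in all 3 libraries. At the estimated depth a count of 0 allows, with 3 fragments per library, up to 0.0858 FPKM for *Sry* in S52, the largest of these limits, and a listed 0 can also be a failed estimate. The SoxF genes held 72.3% of the summed FPKM of all 20 Sox genes in S38, 73.0% in S44 and 68.3% in S52, or 71.2% ± 2.55 (SD, n = 3).

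**Figure D3:**
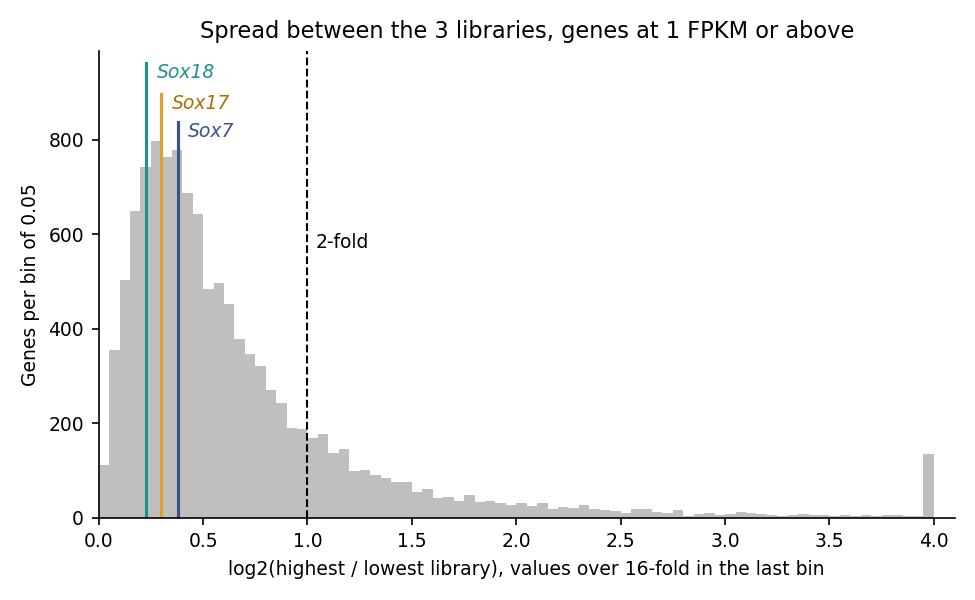
Histogram of log2(highest / lowest library) over 11574 genes averaging 1 FPKM or more and above 0 in each library, with lines at the SoxF genes and a dashed line at 2-fold. The lines of *Sox18*, *Sox17* and *Sox7* lie at ratios of 1.17, 1.23 and 1.30, on the left side of the distribution.

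In the values as deposited, the spread between libraries was below the median of expressed genes for each SoxF gene. The highest library was 1.30-fold above the lowest for *Sox7*, 1.23-fold for *Sox17* and 1.17-fold for *Sox18*. The median over 11574 genes averaging 1 FPKM or more and above 0 in each library was 1.40, with quartiles of 1.22 and 1.78. A smaller ratio than that of *Sox18* was seen in 17.3% of these genes, than that of *Sox17* in 27.1%, and than that of *Sox7* in 38.4%. None of the 3 was over 2-fold, against 20.1% of the 11770 genes that averaged 1 FPKM or more. That share was 8.74% where the mean was 10 FPKM or more, as for the SoxF genes, so none over 2-fold is not unusual. It was 28.2% over all genes above 0 in each library. It was 13.5% without S38, 14.8% without S44 and 5.06% without S52. After each library was rescaled to the same sum, the share was 27.71%. The ratios were then wider, at 1.405 for *Sox7*, 1.579 for *Sox17* and 1.439 for *Sox18*. With the median-ratio scaling the share was 19.73%, and the ratios were 1.388, 1.285 and 1.119 in the same order.

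In S52, the library with fewer platelet and epithelial transcripts, *Sox7* and *Sox17* were higher than in both other libraries and *Sox18* was lower. Against the mean of S38 and S44 on the log2(FPKM + 1) scale, *Sox7* differed by 0.34, *Sox17* by 0.20 and *Sox18* by -0.22. The median over all genes averaging 1 FPKM or more was -0.070, with quartiles of -0.38 and 0.22. S52 was above both other libraries in 33.9% of these genes and below both in 46.3%, so neither position is uncommon. *Sox7* lay above the upper quartile, and the other 2 genes lay within the quartiles. The direction of *Sox17* depended on scaling. After each library was rescaled to the same sum, *Sox17* was at 31.5 in S38, 19.9 in S44 and 27.7 in S52, no longer highest there. *Sox7*, at 44.6, 33.6 and 47.2, stayed highest in S52, but only narrowly above S38. *Sox18*, at 47.4, 34.1 and 32.9, stayed lowest in S52, but only narrowly below S44. With the median-ratio scaling *Sox17* was at 35.2, 31.6 and 40.6, highest in S52 as in the deposited values. *Sox7* was then also highest there and *Sox18* lowest.

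Relative to endothelial genes, the 3 factors shifted in S52 much as in the deposited values. On the log2(FPKM + 1) scale *Sox7* minus the geometric mean of the 10 endothelial genes was -3.13, -3.13 and -2.81 in S38, S44 and S52. The same difference was -3.04, -3.11 and -3.32 for *Sox18* and -3.62, -3.87 and -3.56 for *Sox17*. The SD over the libraries was 0.19 for *Sox7*, 0.15 for *Sox18* and 0.16 for *Sox17*. By this measure too, *Sox7* and *Sox17* were highest and *Sox18* was lowest in S52. The geometric mean was nearly level between libraries, so this repeats the deposited pattern and adds no separate evidence. *Cdh5* and *Cldn5* of the endothelial list are also listed below as described SoxF targets.

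**Figure D4:**
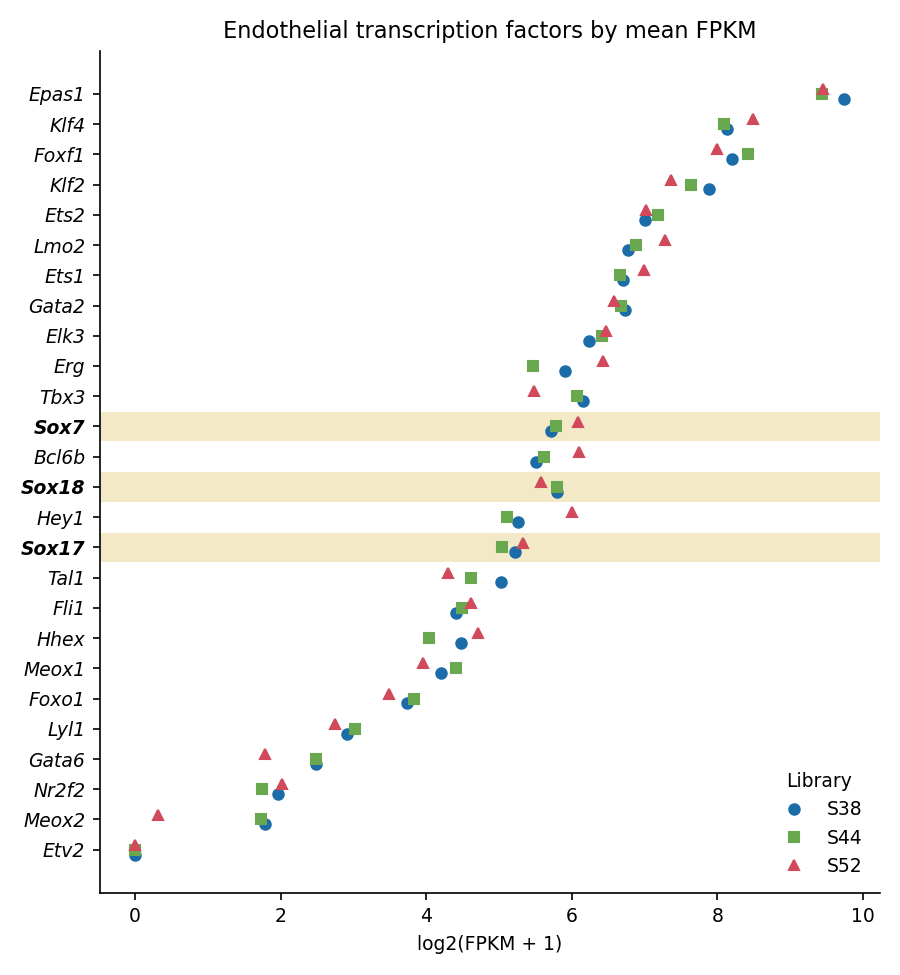
log2(FPKM + 1) of the SoxF genes (shaded rows) and 23 other transcription factors of ECs in each library, ordered by mean FPKM from top to bottom. *Sox7*, *Sox18* and *Sox17* lie in the middle of the list, at places 12, 14 and 16 of 26.

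Among transcription factors known from endothelium, the SoxF genes held a middle position. In a list of 26 factors including the SoxF genes, *Sox7*, *Sox18* and *Sox17* took places 12, 14 and 16 by mean FPKM. The hypoxia factor *Epas1* led at 752 ± 91.9 FPKM (SD, n = 3), followed by the Kruppel-like factor *Klf4* at 305 ± 48.5 and *Foxf1*, a factor of lung mesenchyme and capillaries, at 297 ± 43.5 FPKM (SD, n = 3 for each). The nearest above *Sox7* were *Tbx3*, at 60.1 ± 14.5 FPKM, and the ETS factor *Erg*, at 62.4 ± 21.0 FPKM (SD, n = 3 for each). Both differed from *Sox7* by less than their own SD. *Bcl6b*, between *Sox7* and *Sox18*, was at 53.3 ± 12.2 FPKM, and *Hey1*, a Notch target between *Sox18* and *Sox17*, at 44.7 ± 15.95 FPKM (SD, n = 3 for each). *Tal1*, the next below *Sox17*, was at 31.5, 23.5 and 18.7 FPKM and thus below *Sox17* in each library. *Etv2*, an early factor of the embryonic endothelium, was listed at 0 in all 3 libraries.

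Transcripts of the 4 listed genes whose products work with SoxF factors all averaged 1 FPKM or more, beside 48.3% of all genes. *Ctnnb1*, which encodes beta-catenin, led with 230, 238 and 324 FPKM. *Mef2c*, whose product binds SOX18, was at 12.5 ± 0.649 FPKM, *Rbpj*, the DNA-binding partner of Notch, at 11.7 ± 2.84 FPKM, and the Notch coactivator *Maml1* at 8.65 ± 0.532 FPKM (SD, n = 3 for each). *Sox7*, *Sox18* and *Sox17* were above *Mef2c*, *Rbpj* and *Maml1* in every library and below *Ctnnb1*. Of 4 TCF/LEF genes, whose HMG-box products also bind beta-catenin, *Tcf7* was the highest at 13.9 ± 2.78 FPKM (SD, n = 3). *Tcf7l1* and *Tcf7l2* were at 3.39 ± 0.345 and 2.18 ± 0.417 FPKM (SD, n = 3), and *Lef1* was below 1 FPKM in each library. 

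**Figure D5:**
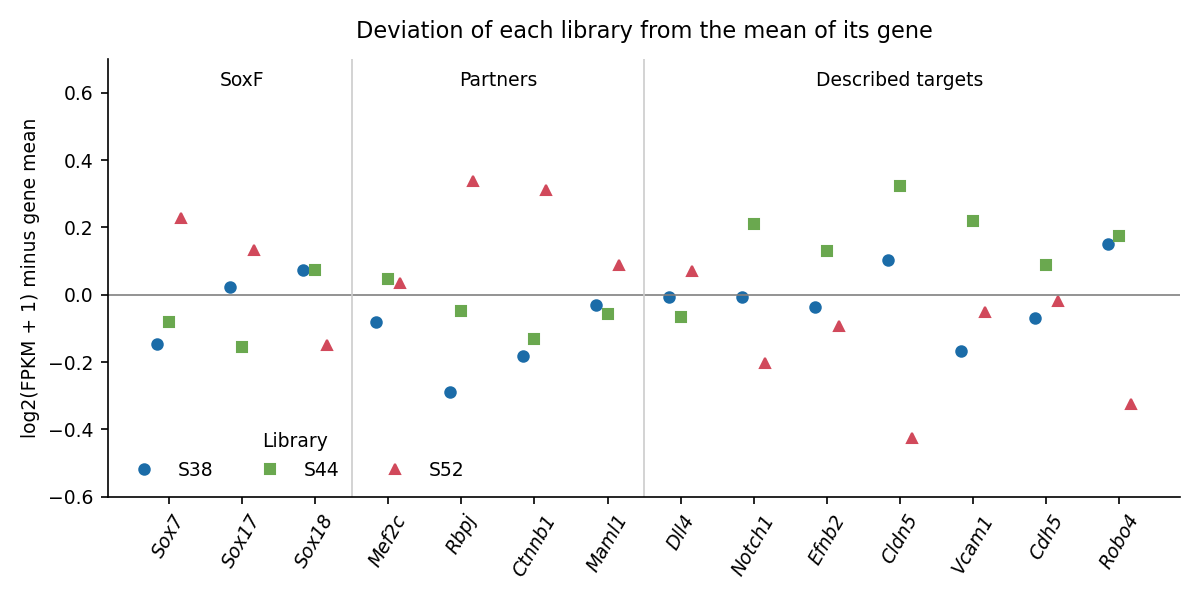
Deviation of each library from the mean of its gene, as log2(FPKM + 1), for the SoxF genes, 4 partner genes and the 7 described target genes at 1 FPKM or above. In S52, *Sox7*, *Sox17*, the 4 partner genes and *Dll4* lie above 0. *Sox18* and the other described targets lie below 0, *Cdh5* and *Vcam1* only slightly.

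Genes described as SoxF targets ranged from among the highest in the fraction to a listed 0. Of 9 such genes, 7 had a mean of at least 10 FPKM, beside 25.7% of all genes, and the median over the 9 was 86.6 FPKM. *Cldn5*, the tight junction gene and a described SOX18 target, reached 1486, 1732 and 1029 FPKM. *Cdh5* (VE-cadherin) was at 921 ± 51.5 FPKM (SD, n = 3). The arterial genes with SoxF-bound enhancers were all present: *Efnb2* at 145 ± 12.0 FPKM, *Dll4* at 86.6 ± 4.15 FPKM and *Notch1* at 42.0 ± 6.14 FPKM (SD, n = 3 for each). *Robo4*, a receptor of endothelium, was at 101, 102 and 72.1 FPKM, and *Vcam1*, a leukocyte adhesion molecule, at 44.3 ± 6.32 FPKM (SD, n = 3). *Prox1*, the lymphatic master regulator downstream of *Sox18* in the embryo, was at 0.132, 0.173 and 0.598 FPKM, and *Mmp7* was listed at 0 in each library.

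Across the 7 targets at 1 FPKM or above, 4 were lowest in S52 (*Notch1*, *Efnb2*, *Cldn5* and *Robo4*) and 1 was highest there (*Dll4*), beside the shares of 46.3% and 33.9% for all genes. *Sox18* was lowest in S52 too. With 3 libraries this is a count of positions and no relation between *Sox18* and a target can be tested.

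The SoxF genes were set beside markers of vessel types. *Lyve1*, which lung capillaries also carry, was at 539, 597 and 390 FPKM. The other lymphatic genes were far below it: *Prox1* as given above, *Reln* at 0.0707, 0.124 and 0 FPKM, and *Pdpn*, the antigen used for exclusion, at 2.44 ± 0.629 FPKM (SD, n = 3). *Ccl21a*, a chemokine gene of lymphatic ECs, was at 9.41 FPKM in S38 and 10.3 FPKM in S44 and was listed at 0 in S52. *Sox18*, at 52.1 FPKM, was above all of these except *Lyve1* in every library. Each of the 11 arterial genes reached 1 FPKM on average, and 5 reached 10 FPKM, beside 48.3% and 25.7% of all genes. *Gja4* was at 58.1, 88.7 and 112 FPKM, and *Cxcl12* at 102 ± 15.8 FPKM (SD, n = 3), both above *Sox17* in every library. *Gja5*, the connexin 40 gene of arteries, was at 8.42 ± 0.389 FPKM and *Bmx* at 4.69 ± 0.498 FPKM (SD, n = 3 for each), both below *Sox17* in every library. *Jag1*, *Unc5b* and *Fbln5* were also below it, at 8.85 ± 0.497, 8.81 ± 0.550 and 7.48 ± 1.11 FPKM (SD, n = 3 for each). *Hey2* had the lowest mean of the 11 arterial genes, with values of 2.45, 0.679 and 3.74 FPKM, and only it was over 2-fold between libraries. Of 6 venous genes, 5 averaged 1 FPKM or more and 4 averaged 10 FPKM or more, beside the same shares of all genes. *Slco2a1*, a prostaglandin transporter gene, and *Vwf*, the von Willebrand factor gene, were the highest at 302 ± 22.5 and 282 ± 41.7 FPKM (SD, n = 3 for each), with *Vcam1* as given above. The venous regulator *Nr2f2* was at 2.76 ± 0.372 FPKM (SD, n = 3), *Ackr1* at 0.771 ± 0.523 FPKM (SD, n = 3), and *Ephb4*, which marks veins and many capillaries, at 58.3 ± 2.70 FPKM (SD, n = 3).

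VEGF signalling acts upstream of SoxF factors in vessel growth. All 8 genes of that list were at 1 FPKM or above, beside 48.3% of all genes. In S52, 5 of them were lowest and 1 was highest, beside 46.3% and 33.9% of all genes averaging 1 FPKM or more. The receptor *Kdr* was at 380, 360 and 237 FPKM. *Flt1* was at 146 ± 6.32 FPKM and the coreceptor *Nrp1* at 227 ± 45.4 FPKM (SD, n = 3 for each). *Nrp2* had the lowest mean of the 8 genes, with values of 5.43, 5.32 and 2.40 FPKM, and only it was over 2-fold between libraries. *Flt4*, the receptor of VEGF-C and VEGF-D, was at 22.4 ± 2.28 FPKM (SD, n = 3), below each SoxF gene in every library. Among the ligands, *Vegfa* was at 134 ± 4.14 FPKM, *Vegfc* at 29.7 ± 4.15 FPKM and *Vegfd*, listed under its synonym *Figf*, at 7.68 ± 0.855 FPKM (SD, n = 3 for each).

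Many genes followed the same profile over 3 libraries as each SoxF gene. Likeness was measured as the distance between log2(FPKM + 1) profiles centred on their means, over 6268 other genes averaging 10 FPKM or more. The nearest to *Sox7* were *Mrpl52*, *Rnf10* and *Gmfb*, at distances of 0.0041, 0.0050 and 0.0071. *Mrpl52*, a mitochondrial ribosomal protein gene, had 45.3, 47.5 and 59.3 FPKM. The nearest to *Sox17* were *Abcf1*, *Gimap9* and *Fmo2*, at 0.0037, 0.0086 and 0.012, and the nearest to *Sox18* were *Ssna1*, *Tagln2* and *Tmem59*, at 0.0025, 0.0054 and 0.0079. Within a distance of 0.1 there were 398 genes for *Sox7*, 387 for *Sox17* and 552 for *Sox18* (6.35%, 6.17% and 8.81% of the genes compared), so a profile over 3 libraries is shared by many genes.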

How the data were processed

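The deposited values are FPKM, made by the authors, with 1 row per symbol, for 3 poly-A selected, non-stranded libraries of paired 51 bp reads. Per the labels, the submitters' processing notes name bcl2fastq 2.17, FastQC 0.11.5, Trimmomatic 0.36, TopHat2 2.1.0 and Cufflinks 2.2.1 on mm10, while the paper's methods describe STAR and HTSeq counts. Which of these made the FPKM values, and with which gene annotation, is not given in the sources used here. No per-sample column was left out.

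FPKM values were used without rescaling, and differences between genes were taken on log2(FPKM + 1). FPKM values are not counts, so no count model was fitted. The pairs of SoxF genes were compared by two-sided exact permutation (sign flips over libraries). Depth was estimated with a length correction of 150, 160 and 170 bp in S38, S44 and S52 from 7077 genes with 1 basic GENCODE M21 transcript of 800 to 4000 bp, by searching the step at which FPKM times length gives whole fragments. The share of low values within 0.15 of a whole number was 77.9% of 394 in S38, 76.6% of 512 in S44 and 74.0% of 246 in S52. The step was chosen by a cosine score of closeness to whole numbers, so this share is no independent check. On simulated counts for these genes, with 3 known depths, the largest error was 0.0115%. These counts were drawn with the same transcript lengths and a correction of 160 bp throughout. That error therefore does not carry over to the depths estimated from the deposited values. Sequences of the 3 genes are not reported here. The named genes were the SoxF genes, fixed lists (other Sox genes, partners, TCF/LEF genes, described targets, VEGF signalling, endothelial transcription factors, arterial, venous and lymphatic genes, and markers of endothelial, alveolar type 2, airway, leukocyte, platelet, mural and fibroblast cells) and, for each SoxF gene, the 3 nearest profiles. *Gm37587* and the genomic neighbours were added after the values were seen. The members and lists were chosen with earlier results of these data known. Alternatives changed the scaling, the pseudocount, the filter on low values and the endothelial reference, and left out each library. Python 3.11.15, NumPy 2.4.6, pandas 2.3.3, SciPy 1.17.1, Biopython 1.88 and matplotlib 3.10.9 were used.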

Additional observations from a re-analysis of the deposited data

How the results depend on the processing

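Of 90 values recomputed under alternatives, 78 were classed as the same, by rules that differed between results. Most results had to move by less than the spread between libraries or keep their direction. The ratio of the highest to the lowest library had only to stay on the same side of 2-fold. For *Sox17* it went from 1.23 to 1.579 after rescaling to a common sum and was classed as the same. So was the share of genes over 2-fold, which went from 20.08% to 27.71% with this rescaling. Leaving out each library in turn gave a difference of *Sox7* minus *Sox18* from -0.054 (without S52) to 0.24 (without S38) on the log2(FPKM + 1) scale, so S52 set its direction. The share of genes over 2-fold between libraries ranged from 5.06% (without S52) to 14.8% (without S44), was 13.5% without S38, and was 8.74% where the mean was 10 FPKM or more. After rescaling to a common sum, the levels were 41.8 for *Sox7*, 26.4 for *Sox17* and 38.2 for *Sox18*. With the median-ratio scaling they were 57.46, 35.83 and 51.8 in the same order. Against *Cdh5* alone in place of the 10 endothelial genes, the log2 difference was -3.99 for *Sox7*, -4.65 for *Sox17* and -4.12 for *Sox18*, and against *Pecam1* alone it was -4.33, -4.99 and -4.46 in the same order, since these genes lie above the mean of the list. No paired analysis was possible because all libraries belong to 1 group, so no groups share replicate numbers. The exact tests compare genes within libraries. The number of libraries limits every order and spread given here.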

Other observations

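The chromosomal neighbours of *Sox7* and *Sox18* that have a row were lower than these 2 genes in every library, and the neighbours examined for *Sox17* have no row in the table. *Prpf6*, a splicing factor gene 14176 bp from *Sox18* on chromosome 2, was at 25.9 ± 0.179 FPKM (SD, n = 3). *Rgs19* was at 11.6 ± 1.73 FPKM (SD, n = 3), and *Tcea2*, 8670 bp from *Sox18*, had 8.68, 4.63 and 2.89 FPKM, all below *Sox18* in each library. *Pinx1*, 23814 bp from *Sox7*, was at 5.81 ± 0.461 FPKM (SD, n = 3), while *4930578I06Rik* on the other side was listed at 0 in S44 and S52. These neighbours were chosen after the values were seen.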
